A study of Mus musculus with 12 samples.

Results

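Receptors for cytokines, chemokines and ligands of the tumor necrosis factor (TNF) family were followed in bulk RNA-Seq of mouse T cells from WT and PERK-cKO mice. The members were the protein-coding genes whose symbols begin with Il and a number followed by r, with Ccr or Cxcr and a number, with Csf, a number and r, with Ifnar, Ifngr or Ifnlr, or with Tnfrsf, and which had at least 10 counts over the 12 libraries. In the gene models of GENCODE M21 (mouse build GRCm38), 88 genes had such symbols, and 27 of them met the count minimum, out of 5906 genes that met it in the whole series. A further 8 genes had rows but fewer than 10 counts, and for 53 genes no row could be placed, so Il2ra, Il2rg, Il4ra, Ccr7, Cxcr3 and Tnfrsf4 were not analysed here. The member closest to the count minimum was Il1r1 with 12 counts, and Il20ra, with 8 counts, was the gene closest below it. Il1rn matched the symbol pattern although it encodes a secreted antagonist and not a receptor.

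T cells from spleen were compared in 4 groups of 3 libraries each: WT and PERK-cKO after allogeneic stimulation, and WT and PERK-cKO after polyclonal stimulation. PERK-cKO mice lacked PERK, the endoplasmic reticulum stress kinase encoded by Eif2ak3, through a Cre recombinase under the CD4 promoter and floxed alleles, on the C57BL/6 background. CD4-Cre acts from the stage of developing thymocytes that express CD4, so it deletes in CD4+ and CD8+ T cells alike. Allogeneic stimulation used antigen-presenting cells (APCs) from another mouse strain, in which PERK was intact, and polyclonal stimulation used antibodies to CD3 and CD28. By the labels, allogeneic cultures ran for 4 days and polyclonal cultures for 3 days, whereas the study's legend gives 4 days for both, so the stimulation and its length cannot be told apart. The sources used here do not give the ages of the mice, whether libraries came from separate mice, or whether APCs were removed before RNA was taken. The p-values therefore measure the spread between libraries, which may be technical.

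Cytokine receptors are built from shared and private chains. The common beta chain serves interleukin 3 (IL-3), IL-5 and GM-CSF, IL2RB serves IL-2 and IL-15, and most such chains signal through Janus kinases and STAT proteins. IL-1 and IL-18 receptors signal through MyD88 and IRAK kinases, chemokine receptors couple to inhibitory G proteins, and TNF receptors recruit TRAF adaptors or death-domain proteins. In T cells these receptors set survival, expansion, effector differentiation and migration, while several others are mainly known from basophils, granulocytes and macrophages.

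The deposited counts were made with exon positions of GRCm39, while the processing notes name mm10 for the reads, so each row was laid at its printed position on GRCm38 exons and counted toward the single gene it overlay by at least 50 bp. The 13388 placed rows, of 53762 in the table, held 50.4% of all counts. Placed counts came from stretches of a gene rather than from the whole of it, and most rows also held bases outside the exons. Il7r was covered over 3899 bp of a 4663 bp row and the largest row of Ccr2 lay wholly on Ccr2 exons (1836 bp). At the other end, Tnfrsf9 rested on 80 bp of a 593 bp row, Il1r2 on 87 bp of 1908 bp, Il18r1 on 124 bp of 6894 bp and Il1rn on 217 bp of 5662 bp. Levels are given as CPM (placed counts scaled to a common library size after TMM normalisation) and compared between groups only, never between genes. Counting did not use strand, so reads from antisense partners were not told apart.

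Total counts were 3132702 to 4631908 per library, and 1568431 to 2327503 of them could be placed. WT polyclonal replicate 1 stood apart from the other 2 libraries of its group, with a chi-square per degree of freedom of 48.3 and 54.6 against them, while those 2 differed by 9.45 and pairs in the other groups by 3.59 to 14.4. Without it 6 members were called after polyclonal stimulation (24.1% of all genes), 11 in the interaction (29.5%) and 12 between stimulations in WT (41.6%). Eif2ak3 itself had 98.7 ± 7.40 CPM (SD, n = 3) in WT and 70.3 ± 3.60 CPM in PERK-cKO libraries after allogeneic stimulation, a log2 fold change of -0.49 (edgeR, adjusted p = 0.00759). After polyclonal stimulation its log2 fold change was -0.36 (adjusted p = 0.171), and which exons were deleted is not given in the sources used here. The 4 Y-linked genes that could be placed held 3335 to 4716 counts per library in WT cells after allogeneic stimulation and 0 in every library of the other groups, so the sex of the cells cannot be told apart from genotype after allogeneic stimulation, nor from stimulation in WT, nor from the interaction of genotype and stimulation. T cell markers (6 of 15 placed, led by Thy1 and Lck, with the CD3 genes, Cd4 and Cd8a not placed) summed to 6304.1 to 6390.9 CPM in WT and 5478.1 to 6047.3 CPM in PERK-cKO libraries after allogeneic stimulation. Their sums were 4040.1 to 4176.9 CPM in WT and 5252.6 to 5569.5 CPM in PERK-cKO libraries after polyclonal stimulation.

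Markers of other cell types also moved with genotype. Basophil and mast cell markers (7 of 10 placed, among them Prss34, Fcer1a and Ms4a2) summed to 141.9 to 157.2 CPM in WT and 3057.5 to 3263.1 CPM in PERK-cKO libraries after allogeneic stimulation, and to 3.69 to 7.28 CPM against 30.8 to 36.0 CPM after polyclonal stimulation. Macrophage and monocyte markers (3 of 14 placed, led by Lyz2) summed to 45.9 to 61.0 CPM against 880.9 to 1088.2 CPM after allogeneic stimulation and to at most 1.79 CPM after polyclonal stimulation. Dendritic cell markers (4 of 8 placed) summed to 330.1 to 369.1 CPM against 828 to 849.6 CPM, of which the chemokine gene Ccl22 alone made 339.9 and 783.8 CPM on average, and B cell markers (2 of 10 placed) to 90.1 to 118.4 CPM against 192.8 to 222.7 CPM, after allogeneic stimulation. NK cell markers (2 of 6 placed) summed to 0.529 to 1.77 CPM in WT and 2.44 to 8.60 CPM in PERK-cKO after allogeneic stimulation and to at most 2 CPM against 9.76 to 11.3 CPM after polyclonal stimulation. The 1 regulatory T cell marker placed, of 4, was at 135.2 to 144.9 CPM against 123 to 161.7 CPM and at 46.9 to 56.9 CPM against 79.4 to 94.7 CPM. In these bulk libraries fewer or more cells of a type and less or more RNA per cell cannot be told apart.

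Csf2rb and Csf2rb2 are shown first as sequence because they are near copies of each other and were higher in PERK-cKO cells after both stimulations. Both lie on chromosome 15, Csf2rb on the plus and Csf2rb2 on the minus strand. The longest coding stretch behind the Csf2rb counts (chr15:78345445-78345558, GRCm38) and its counterpart in Csf2rb2 (chr15:78287888-78288001), from the GENCODE M21 transcripts and read 5′ to 3′, were as follows, with the bases that differ in capitals.

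Csf2rb: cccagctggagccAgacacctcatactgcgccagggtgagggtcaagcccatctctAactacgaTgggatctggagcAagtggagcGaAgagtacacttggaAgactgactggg

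Csf2rb2: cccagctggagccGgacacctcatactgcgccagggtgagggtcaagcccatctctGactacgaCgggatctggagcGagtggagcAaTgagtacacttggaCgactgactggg

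The stretches differed at 7 of 114 bases, and their longest identical run was 42 bases. Over the 4 coding stretches behind the Csf2rb2 counts, identity with Csf2rb transcripts was 87.1% to 95.8%, with identical runs of up to 64 bases. A read that fits both genes could be left out or counted for either, so their separate values are uncertain. Ccr2 also belongs to a family of similar genes, and its value carries the same uncertainty.

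Of the 27 members, 24 had 1 or more RefSeq promoter windows (GRCm38.p6, 250 bases before to 50 after the gene's start), 31 windows in all. The windows of 5 of the 6 members with the largest increases in PERK-cKO cells after allogeneic stimulation are printed, chosen after their values were seen, since these members moved together. Capitals mark the letters of 4 motifs searched on both strands: STAT (TTCNNNGAA), NF-kB (GGGA and CC, 4 bases apart), ATF4-CEBP (TGATGNAA) and AP-1 (TGANTCA). The windows are chr15:78305672-78305971 (minus strand) for Csf2rb2, and on the plus strand chr4:126024409-126024708 for Csf3r, chr4:135686207-135686506 for Ifnlr1, chr1:40085843-40086142 for Il1r2 and chr2:24336610-24336909 for Il1rn, of which the first of 3 windows is shown.

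Csf2rb2: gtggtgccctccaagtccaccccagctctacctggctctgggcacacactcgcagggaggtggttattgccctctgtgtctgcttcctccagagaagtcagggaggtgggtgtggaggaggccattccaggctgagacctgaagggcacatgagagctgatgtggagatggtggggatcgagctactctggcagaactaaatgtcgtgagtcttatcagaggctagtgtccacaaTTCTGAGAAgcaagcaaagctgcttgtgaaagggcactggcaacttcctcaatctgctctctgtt

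Csf3r: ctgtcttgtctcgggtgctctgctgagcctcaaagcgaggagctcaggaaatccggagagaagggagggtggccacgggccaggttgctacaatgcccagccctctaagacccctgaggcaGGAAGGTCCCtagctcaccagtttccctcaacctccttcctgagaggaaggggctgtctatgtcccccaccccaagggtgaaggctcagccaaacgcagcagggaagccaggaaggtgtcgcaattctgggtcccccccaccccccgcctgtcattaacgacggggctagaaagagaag

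Ifnlr1: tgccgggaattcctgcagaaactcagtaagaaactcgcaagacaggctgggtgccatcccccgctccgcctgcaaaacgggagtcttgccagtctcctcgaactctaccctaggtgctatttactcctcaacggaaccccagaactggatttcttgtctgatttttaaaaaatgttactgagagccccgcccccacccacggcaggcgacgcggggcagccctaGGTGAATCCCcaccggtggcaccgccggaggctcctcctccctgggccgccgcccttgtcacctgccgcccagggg

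Il1r2: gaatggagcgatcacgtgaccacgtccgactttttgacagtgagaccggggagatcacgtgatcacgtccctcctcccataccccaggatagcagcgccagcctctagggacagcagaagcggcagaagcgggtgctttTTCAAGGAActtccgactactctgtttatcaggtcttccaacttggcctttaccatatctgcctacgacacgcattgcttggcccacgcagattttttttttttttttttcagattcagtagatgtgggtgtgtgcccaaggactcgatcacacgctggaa

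Il1rn: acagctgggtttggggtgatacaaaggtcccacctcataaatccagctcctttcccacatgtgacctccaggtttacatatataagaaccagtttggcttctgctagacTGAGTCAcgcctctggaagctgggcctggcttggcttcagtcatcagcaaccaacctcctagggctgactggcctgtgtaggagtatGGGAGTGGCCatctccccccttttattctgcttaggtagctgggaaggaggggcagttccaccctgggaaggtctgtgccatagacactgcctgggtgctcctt

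The STAT letters stood in the Csf2rb2 and Il1r2 windows, the NF-kB letters in those of Csf3r, Ifnlr1 and Il1rn, and the AP-1 letters in that of Il1rn. Over all members, 9 of the 31 windows held the STAT letters, as did 8.3% of the 32851 windows of all genes. The NF-kB letters were in 7 windows (20.7% of all windows), the AP-1 letters in 3 (7.81%) and the ATF4-CEBP letters in 0 (3.97%). No 2 matches overlapped in the printed windows, and a match is a description of letters only.

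After allogeneic stimulation, receptors were higher far more often than lower in PERK-cKO cells. Of 23 members tested, 15 were higher and 2 lower (edgeR's quasi-likelihood test, Benjamini-Hochberg adjusted p under 0.05), 17 in all, whereas 33% of the 4093 genes tested were called, 18.5% higher and 14.5% lower. The median log2 fold change of the members tested was 0.78, and -0.02 over all genes tested. The groups did not overlap for 18 members (44.5% of all genes). Of the 23, 6 had enough counts for the filter in 1 genotype alone, Csf3r, Ifnlr1, Il1r2, Il1rn and Il17re in PERK-cKO and Il18r1 in WT, so a difference was close to a condition of their being tested. Among the other 17 members, 11 were higher and 1 lower. When at least 50% of a row's bases had to lie inside its gene, 4 members remained testable, and 3 of them were higher (21% of all genes in this setting), Ccr2 and Tnfrsf21 among them.

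After polyclonal stimulation the members were called about as often as other genes were. Of 17 members tested, 4 were higher (Csf2rb, Csf2rb2, Ifngr1 and Il2rb) and 2 lower (Tnfrsf1a and Tnfrsf9), 6 in all, against 31.8% of 3937 genes (16% higher and 15.8% lower). Csf2rb and Csf2rb2 passed the filter through the PERK-cKO libraries alone. The members' median log2 fold change was 0.01, and the groups did not overlap for 8 members (43.4% of all genes). With libraries scaled to T cell markers, which shifted the median of all genes by -0.36, 3 members were higher and 6 lower, against 3.48% and 41.1% of all genes in this scaling.

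The genotype effect itself differed between the stimulations (interaction over 12 libraries) for 12 of 24 members, 9 of them more positive and 3 more negative after allogeneic stimulation, and for 33.9% of the 4402 genes tested (16.7% and 17.2%). Il1rn and Ifnlr1, among the 9, passed the filter through the PERK-cKO allogeneic libraries alone. With T cell marker scaling, which shifted the median of all genes by 0.53, 17 were more positive and 1 more negative, against 38% and 4.04% of all genes in this scaling. The 5 comparisons share groups of libraries and are not independent of each other. The interaction also carries the difference in sex of the WT allogeneic libraries. The plot of genotype effects sets the members' changes after both stimulations side by side.

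**Figure D1:**
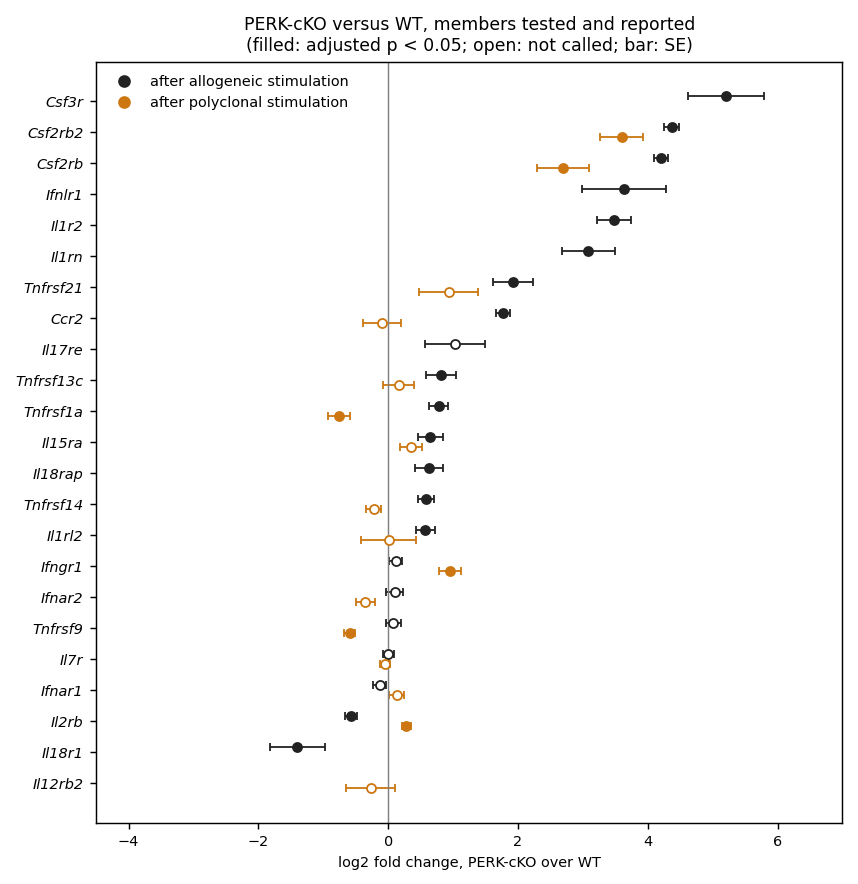
Log2 fold change of PERK-cKO over WT (x axis) for the members tested and reported here (y axis), after allogeneic (black) and polyclonal (orange) stimulation, with bars for the SE from 3 libraries a group and filled points for adjusted p under 0.05. Csf3r, Csf2rb2 and Csf2rb lie farthest to the right after allogeneic stimulation, Il18r1 and Il2rb lie left of 0, and Tnfrsf1a lies on opposite sides of 0 in the 2 stimulations.

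Among the receptors for colony-stimulating factors, the common beta chain gene Csf2rb and its near copy Csf2rb2 rose in PERK-cKO cells after allogeneic stimulation and were higher in 3 of 3 PERK-cKO libraries after polyclonal stimulation. Csf2rb, the common chain for IL-3, IL-5 and GM-CSF, was at 70.4, 64.2 and 60.3 CPM in the WT and at 1238, 1112 and 1228 CPM in the PERK-cKO libraries after allogeneic stimulation (log2 fold change 4.20 ± 0.11 (SE), adjusted p = 5.88e-19). After polyclonal stimulation it was at 3.16, 5.99 and 2.08 CPM in WT and 29.1, 14.3 and 30.3 CPM in PERK-cKO (log2 fold change 2.69 ± 0.40 (SE), adjusted p = 0.000132). All PERK-cKO libraries lay above all WT libraries in both settings, although the polyclonal libraries held 4 to 66 counts each. In the polyclonal comparison Csf2rb and Csf2rb2 passed the filter through the PERK-cKO libraries alone, so their p-values there are no support beyond the counts.

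Csf2rb2, the mouse chain private to IL-3, followed the same order. Its levels were 83.0, 77.1 and 73.0 CPM in WT and 1733, 1422 and 1659 CPM in PERK-cKO after allogeneic stimulation (log2 fold change 4.37 ± 0.11 (SE), adjusted p = 5.88e-19), and 4.21, 1.5 and 2.60 CPM against 38.3, 34.6 and 29.8 CPM after polyclonal stimulation (log2 fold change 3.60 ± 0.33 (SE), adjusted p = 1.36e-06). The excess was 1.49 ± 0.43 larger on the log2 scale after allogeneic stimulation for Csf2rb (adjusted p = 0.00925), a call that was lost without WT polyclonal replicate 2 (1.01, adjusted p = 0.18), while for Csf2rb2 the difference of 0.76 ± 0.38 did not pass (adjusted p = 0.16) but did with T cell marker scaling (1.27, adjusted p = 0.0123). Allogeneic libraries exceeded polyclonal ones in WT (Csf2rb 4.05 ± 0.27, Csf2rb2 4.75 ± 0.26) and in PERK-cKO cells (Csf2rb 5.57 ± 0.16, Csf2rb2 5.54 ± 0.12). Under the symbols as listed in the table, the row named Csf2rb2 gave a log2 fold change of 0.25 after allogeneic stimulation (adjusted p = 0.439) and -0.02 after polyclonal stimulation, and between stimulations -0.03 (adjusted p = 0.932) in WT and 0.25 (adjusted p = 0.362) in PERK-cKO. As laid here, that row overlay no exon of Csf2rb2, so it gives no second value of the gene.

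Csf3r, the G-CSF receptor of neutrophils and their precursors, had 0, 3 and 0 counts in the WT and 68, 41 and 35 counts in the PERK-cKO allogeneic libraries, and 0 in every polyclonal library. The ratio of summed CPM after allogeneic stimulation was 41.8 (95% interval 14 to 205), and the fitted log2 fold change passed the test (adjusted p = 1.54e-07), although the gene reached the filter through the PERK-cKO libraries alone. Within PERK-cKO cells it was at least 47.5-fold higher after allogeneic stimulation with 0 counts over the polyclonal group set to a floor of 3, and the 95% interval of the ratio, which takes the counting error of both groups, began at 38.2. Its interaction could not be estimated because both polyclonal groups were at 0. Of the 8 neutrophil markers Csf3r was the one that could be placed.

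These 3 genes moved together with markers of other cell types, as the plot of Csf2rb, Csf2rb2 and marker sums shows. The median log2 fold change of the tested basophil and mast cell markers was 4.38 after allogeneic stimulation (6 of 6 higher) and 2.73 after polyclonal stimulation (2 of 2 higher). With all placed markers summing to 3.69 to 7.28 CPM in WT polyclonal libraries, these 2 could pass the filter through the PERK-cKO libraries alone. A higher value was therefore close to a condition of their test. That of the tested macrophage and monocyte markers was 4.10 after allogeneic stimulation (2 of 2 higher). The part of these cells in the Csf2rb, Csf2rb2 and Csf3r differences was not tested.

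**Figure D2:**
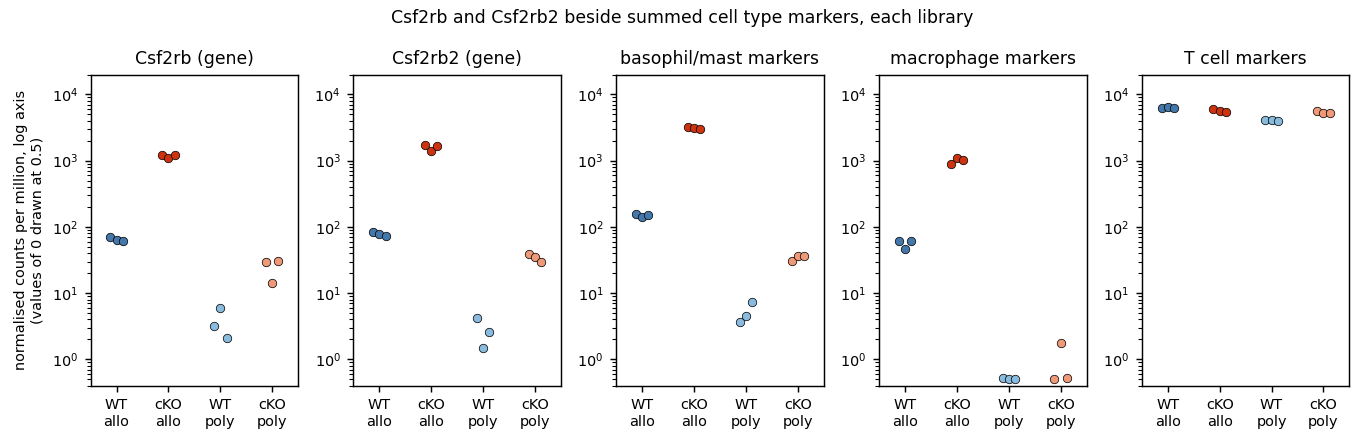
CPM on a log axis for Csf2rb, Csf2rb2 and the summed basophil and mast cell, macrophage and monocyte, and T cell markers, with 1 point per library in each of the 4 groups and values of 0 drawn at 0.5. The receptor genes and the basophil and mast cell sum stand highest in the PERK-cKO allogeneic libraries and lowest in the WT polyclonal libraries, while the T cell sum stays between 4040.1 and 6390.9 CPM.

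In the IL-1 receptor family, 3 members rose in PERK-cKO cells after allogeneic stimulation, and the decoy receptor and the antagonist rose most. The decoy receptor and the antagonist reached the filter on low counts through the PERK-cKO libraries alone. The macrophage and monocyte markers tested (median log2 fold change 4.10, 2 of 2 higher) and the basophil and mast cell markers (4.38, 6 of 6 higher) rose in the same libraries, and their part in these differences was not tested. Il1r2, a decoy receptor that binds IL-1 without signalling, was at 7.55, 3.53 and 5.82 CPM in WT and 59.3, 65.0 and 64.7 CPM in PERK-cKO libraries (log2 fold change 3.48 ± 0.26 (SE), adjusted p = 1.35e-10). Its polyclonal levels were 3.69, 2.49 and 7.80 CPM in WT and 1.32, 1.79 and 1.03 CPM in PERK-cKO, where 2 to 15 counts a library were too few for the test. The fitted difference of the genotype effects between the stimulations was 5.20 ± 0.63 on the log2 scale (adjusted p = 1.08e-06) and rests on these low polyclonal counts.

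Il1rn, the IL-1 receptor antagonist, was at 3.14, 2.36 and 1.59 CPM in WT and 20.6, 21.2 and 18.3 CPM in PERK-cKO after allogeneic stimulation (log2 fold change 3.08 ± 0.41 (SE), adjusted p = 2.02e-06). The polyclonal libraries held 1 to 6 counts each, 1.05, 2.99 and 1.04 CPM in WT and 0.441, 0.597 and 0.514 CPM in PERK-cKO, too few for the test. The fitted interaction of 4.70 ± 0.91 (adjusted p = 0.000342) rests on these counts. In both genes WT and PERK-cKO libraries did not overlap after either stimulation, with WT lower after allogeneic and higher after polyclonal stimulation. Of the 5662 bases in the Il1rn row, 5100 lay between genes.

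Il1rl2, the IL-36 receptor, changed less. Its levels were 67.9, 70.7 and 55.0 CPM in WT and 88.6, 96.2 and 102 CPM in PERK-cKO after allogeneic stimulation (log2 fold change 0.57 ± 0.15 (SE), adjusted p = 0.00371) and 9.48, 6.98 and 5.72 CPM against 12.3, 5.97 and 3.60 CPM after polyclonal stimulation (log2 fold change 0.01 ± 0.43). It was higher after allogeneic than polyclonal stimulation in WT (3.08 ± 0.23) and in PERK-cKO cells (3.64 ± 0.25), in the latter after passing the filter through the allogeneic libraries alone. Il1r1, the signalling IL-1 receptor, had 0 to 3 counts a library and was not tested.

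The chains of the IL-18 receptor, which drives interferon-gamma production together with IL-12, were called in opposite directions after allogeneic stimulation, Il18r1 from few counts. Il18r1, the ligand-binding chain, was at 13.8, 11.2 and 18.5 CPM in WT and 8.60, 2.01 and 5.49 CPM in PERK-cKO (log2 fold change -1.40 ± 0.42 (SE), adjusted p = 0.013). Il18rap, the accessory chain, was at 24.5, 27.7 and 23.3 CPM in WT and 35.7, 35.8 and 45.8 CPM in PERK-cKO (log2 fold change 0.63 ± 0.21 (SE), adjusted p = 0.0234). The groups did not overlap for either gene, but Il18r1 passed the filter through the WT libraries alone, which made a lower value in PERK-cKO close to a condition of its test.

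Both calls depended on which libraries were kept. That of Il18r1 was lost without PERK-cKO allogeneic replicate 2 (-0.99, adjusted p = 0.0834) or WT allogeneic replicate 3 (-1.18, adjusted p = 0.0782), and the value came from the row listed as Il1rl1. The row listed as Il18r1 is the one counted here as Il18rap, and its 0.65 under listed symbols is therefore no separate measurement. The call of Il18rap was lost without PERK-cKO allogeneic replicate 3 (0.51, adjusted p = 0.119), WT allogeneic replicate 1 (0.61, adjusted p = 0.0536) or WT allogeneic replicate 3 (0.57, adjusted p = 0.0768), and with all 12 libraries in one fit (0.63, adjusted p = 0.0542). After polyclonal stimulation Il18r1 had 1 to 10 counts and Il18rap 1 to 11 counts a library, too few for the test. The interaction of Il18r1 was -2.58 ± 0.89 (adjusted p = 0.0274) and was lost in 6 of the 12 fits with 1 library left out, with adjusted p from 0.0592 to 0.12. Leaving out replicate 1 or 2 of PERK-cKO polyclonal, 1 or 3 of WT polyclonal, 2 of PERK-cKO allogeneic or 3 of WT allogeneic ended it, as did T cell marker scaling (-2.09, adjusted p = 0.066). Compared with polyclonal stimulation, both chains were higher after allogeneic stimulation in WT (Il18r1 3.16 ± 0.46, Il18rap 4.28 ± 0.45), and Il18rap in PERK-cKO cells (3.06 ± 0.30), but in each of these fits the gene passed the filter through the allogeneic libraries alone.

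Of the receptors for IL-2, IL-7 and IL-15, Il2rb fell in PERK-cKO cells after allogeneic stimulation and Il7r did not pass the test. Il2rb, the signalling beta chain for IL-2 and IL-15 and the member with the most counts, was at 3260.3, 3236 and 3204 CPM in WT and 2325, 1983 and 2188 CPM in PERK-cKO (log2 fold change -0.58 ± 0.09 (SE), adjusted p = 2.55e-05). All PERK-cKO libraries lay below all WT libraries. T cell markers moved the same way: 3 of the 4 tested, Cd5 (-0.80), Lck (-0.52) and Lat (-0.46), were lower after allogeneic stimulation and Thy1, with 0.05, did not pass, for a median of -0.49. With libraries scaled to the T cell markers the log2 fold change of Il2rb was -0.44 (adjusted p = 0.000854). After polyclonal stimulation it was at 1971, 1989 and 1836 CPM in WT and 2399, 2332 and 2361 CPM in PERK-cKO (log2 fold change 0.28 ± 0.07 (SE), adjusted p = 0.00905), higher in 3 of 3 PERK-cKO libraries, but -0.09 (adjusted p = 0.304) with libraries scaled to T cell markers.

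The genotype effect on Il2rb differed by -0.87 ± 0.11 on the log2 scale between the stimulations (allogeneic minus polyclonal, adjusted p = 1.9e-06), and it was -0.35 or lower under every scaling tried (adjusted p at most 0.00903). The interactions of the T cell markers were negative by test for 5 of 6, with a median of -0.70 and -0.80 for Lck, and their part in the Il2rb difference was not tested beyond that scaling. In WT cells Il2rb was higher after allogeneic than polyclonal stimulation (log2 fold change 0.71 ± 0.08 (SE), adjusted p = 5.01e-06, and 0.12, adjusted p = 0.142, with T cell marker scaling), and in PERK-cKO cells the difference was -0.13 ± 0.08 (adjusted p = 0.206). Il2rb counts came from 611 bp of its exons in a 7552 bp row that also held 2905 bp of its introns.

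Il7r, the IL-7 receptor chain of naive and memory T cells, was at 1177, 1223 and 1106 CPM in WT and 1148, 1202 and 1151 CPM in PERK-cKO after allogeneic stimulation, and at 1268, 1296 and 1387 CPM against 1347, 1304 and 1214 CPM after polyclonal stimulation. The groups overlapped in both settings (log2 fold changes 0.00 ± 0.09 and -0.05 ± 0.08), although with T cell marker scaling the polyclonal value was -0.41 (adjusted p = 0.000616). Its difference between stimulations in WT (-0.20 ± 0.08, adjusted p = 0.0472) was lost when any 1 of the 6 libraries was left out (-0.23 to -0.17, adjusted p 0.0657 to 0.154), as it was with RLE factors (adjusted p = 0.0501), library size alone (0.163), DESeq2 (0.0719), no filter (0.0913), all 12 libraries in one fit (0.0714) and symbols as listed (0.0564). It passed in the 5 other settings tried, among them T cell marker scaling with -0.79 (adjusted p = 2.48e-06).

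Il15ra, which presents IL-15 to neighbouring cells, was at 52.2, 27.7 and 37.0 CPM in WT and 58.5, 68.0 and 56.1 CPM in PERK-cKO after allogeneic stimulation (log2 fold change 0.65 ± 0.20 (SE), adjusted p = 0.0126). This call was lost without WT allogeneic replicate 2, the lowest WT library (0.46, adjusted p = 0.0955). After polyclonal stimulation the levels were 39.5, 39.9 and 53.6 CPM and 60.8, 62.1 and 48.3 CPM (log2 fold change 0.35 ± 0.17 (SE), adjusted p = 0.138), which passed without WT polyclonal replicate 3 (0.50, adjusted p = 0.0484) and was -0.02 with T cell marker scaling.

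Il12rb2, the IL-12 receptor chain that marks type 1 helper T cells, was lower after allogeneic than polyclonal stimulation in both genotypes. It had 1, 1 and 1 counts in the WT and 5, 5 and 3 counts in the PERK-cKO allogeneic libraries, and 25, 24 and 11 against 15, 20 and 15 counts in the polyclonal libraries. After polyclonal stimulation this made 13.2, 12 and 5.72 CPM in WT and 6.61, 11.9 and 7.71 CPM in PERK-cKO, with overlapping groups (log2 fold change -0.27 ± 0.38 (SE), adjusted p = 0.632). The ratio of summed CPM, allogeneic over polyclonal, was 0.0562 (95% interval 0.0113 to 0.172) in WT and 0.257 (95% interval 0.128 to 0.481) in PERK-cKO, with adjusted p = 0.00012 and 0.00151 in the fits. In both genotypes the gene passed the filter through the polyclonal libraries alone, so these tests add nothing to the counts. With symbols as listed neither passed, at log2 fold changes of -0.19 (adjusted p = 0.218) in WT and -0.16 (adjusted p = 0.419) in PERK-cKO. The row listed as Il12rb2 overlay no exon of the gene here, so it gives no second value. The interaction of 2.06 ± 0.89 did not pass (adjusted p = 0.081) but did without WT polyclonal replicate 3 (2.34, adjusted p = 0.0498) and with T cell marker scaling (2.54, adjusted p = 0.0247).

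Receptors for IL-13 and IL-17 had few counts. Il17re, a chain of the IL-17C receptor, was at 3.77 to 5.89 CPM in WT and 6.04 to 15 CPM in PERK-cKO after allogeneic stimulation (log2 fold change 1.03 ± 0.46 (SE), adjusted p = 0.0928), without overlap. The fitted change of allogeneic over polyclonal stimulation in PERK-cKO cells (log2 fold change 1.98 ± 0.55 (SE), adjusted p = 0.00547) came after the gene passed the filter through the allogeneic libraries alone, and its call was lost without PERK-cKO allogeneic replicate 1 (1.41, adjusted p = 0.0647). Il13ra1 had 0 to 6 counts and Il17rd 0 to 7 counts a library, and neither passed the filter in any comparison.

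Among interferon receptors, the chains for interferon-gamma and type I interferons did not pass the test after allogeneic stimulation, while the type III chain was called higher from very few counts in WT. Ifngr1, the ligand-binding chain for interferon-gamma, was at 219, 224 and 251 CPM in WT and 248, 246 and 262 CPM in PERK-cKO after allogeneic stimulation, with overlapping groups (log2 fold change 0.12 ± 0.10 (SE), adjusted p = 0.376). Polyclonal levels were 41.1, 47.4 and 33.3 CPM in WT and 93.8, 65.6 and 79.1 CPM in PERK-cKO, and all PERK-cKO libraries were higher (log2 fold change 0.96 ± 0.17 (SE), adjusted p = 0.000514). The genotype effect differed by -0.86 ± 0.19 on the log2 scale between the stimulations (adjusted p = 0.00104), and -0.33 (adjusted p = 0.159) with T cell marker scaling. With symbols as listed it was -3.70 and did not pass (adjusted p = 0.0688), but the row listed as Ifngr1 overlay no exon of the gene here. Ifngr1 was higher after allogeneic than polyclonal stimulation in WT (2.48 ± 0.13, 5.57-fold) and in PERK-cKO cells (1.65 ± 0.12, 3.14-fold).

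Ifnar1 and Ifnar2 form the receptor for type I interferons. Ifnar1 was at 316, 280.3 and 321 CPM in WT and 288, 277 and 268 CPM in PERK-cKO after allogeneic stimulation (log2 fold change -0.13 ± 0.10 (SE), adjusted p = 0.318), and at 184, 248 and 205 CPM against 235, 247 and 222 CPM after polyclonal stimulation (log2 fold change 0.13 ± 0.11 (SE), adjusted p = 0.411). Ifnar2 was at 82.4, 105 and 97.8 CPM in WT and 109, 94.7 and 102 CPM in PERK-cKO after allogeneic stimulation (log2 fold change 0.10 ± 0.14 (SE), adjusted p = 0.61). After polyclonal stimulation Ifnar2 was at 78.4, 77.8 and 82.7 CPM against 64.8, 47.7 and 75.5 CPM, lower in 3 of 3 PERK-cKO libraries without passing (log2 fold change -0.35 ± 0.15 (SE), adjusted p = 0.0949). It passed without PERK-cKO polyclonal replicate 3 (-0.50, adjusted p = 0.0317) and with T cell marker scaling (-0.72, adjusted p = 0.00235), and its interaction of 0.44 ± 0.20 (adjusted p = 0.1) also passed without that library (0.63, adjusted p = 0.0235), with 10 counts in every library (0.55, adjusted p = 0.0382) and with T cell marker scaling (0.96, adjusted p = 0.00083).

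Between stimulations, Ifnar1 was higher after allogeneic stimulation in WT (log2 fold change 0.49 ± 0.11 (SE), adjusted p = 0.00252, and -0.09 with T cell marker scaling). In PERK-cKO cells it was higher by 0.24 ± 0.09 (adjusted p = 0.0371), a call lost in 5 of 6 fits with 1 library left out (0.20 to 0.28, adjusted p 0.051 to 0.169), every one but that without PERK-cKO allogeneic replicate 3, and with DESeq2 (adjusted p = 0.0548), library size alone (0.117), no filter (0.113), all 12 libraries in one fit (0.0541) or T cell marker scaling (0.14, adjusted p = 0.227). Ifnar2 was higher after allogeneic stimulation in PERK-cKO cells (0.69 ± 0.15) and did not pass in WT (0.23 ± 0.12).

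Ifnlr1, the ligand-binding chain for interferon-lambda, had 1, 1 and 1 counts in the WT and 18, 12 and 17 counts in the PERK-cKO allogeneic libraries. The ratio of summed CPM was 13.6 (95% interval 4.39 to 68.5), and the fitted change passed (adjusted p = 9.5e-05), although the gene reached the filter through the PERK-cKO libraries alone. The row listed under its own symbol was called in the opposite direction, with a log2 fold change of -0.49 (adjusted p = 0.0085). That row overlay no exon of Ifnlr1 as laid here, so it gives no second value of the gene. Both polyclonal groups held 0 to 4 counts a library. The interaction (3.95 ± 1.38, adjusted p = 0.0299) was lost in 5 of the 12 fits with 1 library left out, down to 2.43 (adjusted p = 0.456) without WT polyclonal replicate 3, the library with 4 counts. The others were the fits without PERK-cKO polyclonal replicate 3, PERK-cKO allogeneic replicate 3 and WT allogeneic replicates 2 and 3 (adjusted p 0.0527 to 0.0611), and with symbols as listed it was 0.18 (adjusted p = 0.474).

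The chemokine receptor Ccr2 rose in PERK-cKO cells after allogeneic stimulation, and the genotype effect differed between the stimulations. Ccr2, which binds CCL2 on monocytes and effector T cells, was at 139, 159 and 174 CPM in WT and 501, 579 and 527 CPM in PERK-cKO after allogeneic stimulation (log2 fold change 1.77 ± 0.10 (SE), adjusted p = 2.59e-12). Its polyclonal levels were 21.6, 17.5 and 33.3 CPM in WT and 32.6, 17.3 and 17.5 CPM in PERK-cKO, with overlapping groups (log2 fold change -0.09 ± 0.29 (SE), adjusted p = 0.849). The effect differed by 1.83 ± 0.28 on the log2 scale (adjusted p = 2.79e-05). Allogeneic libraries were higher than polyclonal ones 6.4-fold in WT and 23.2-fold in PERK-cKO cells. The macrophage and monocyte sum moved the same way after allogeneic stimulation and stood at most at 1.79 CPM after polyclonal stimulation, and its part in the Ccr2 difference was not tested.

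**Figure D3:**
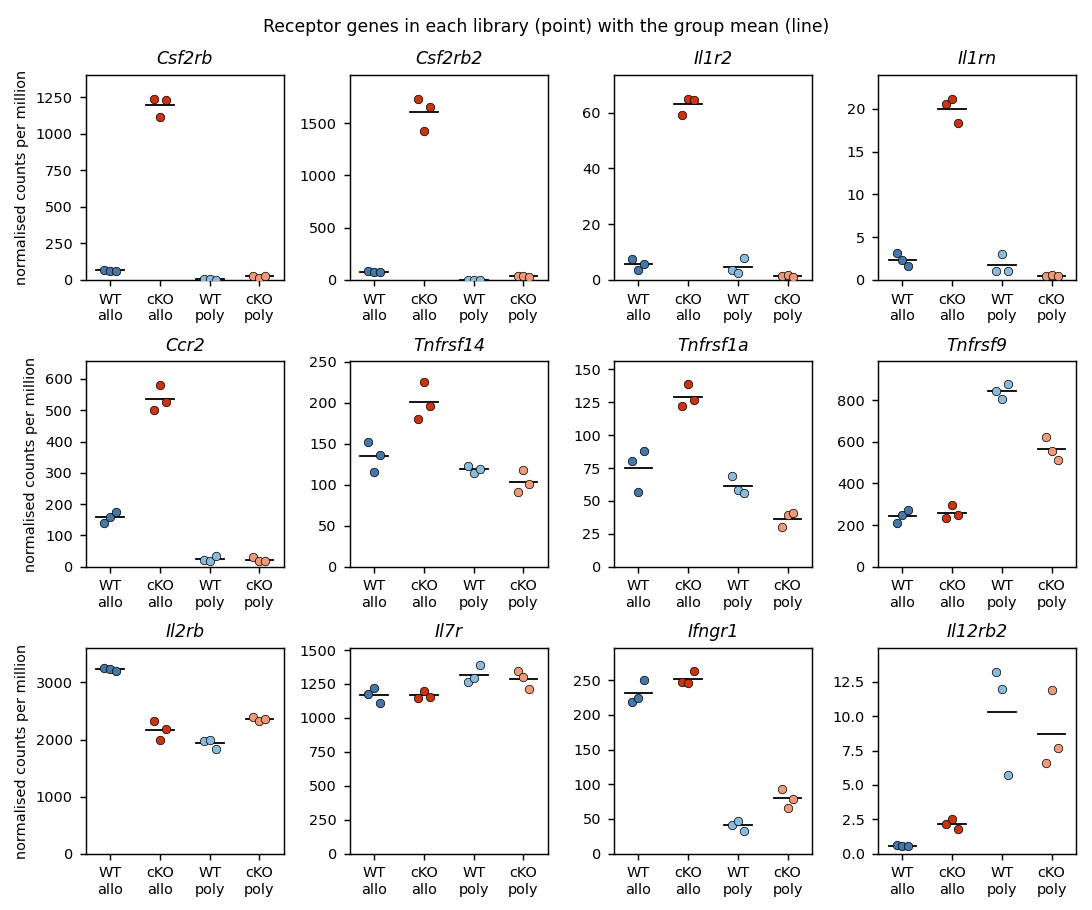
CPM (y axis, linear, from 0) of 12 members in each library (points) of the 4 groups (x axis), with lines at the group means. Csf2rb, Csf2rb2, Il1r2, Il1rn, Ccr2 and Tnfrsf14 are highest in the 3 PERK-cKO allogeneic libraries, Il2rb is highest in the 3 WT allogeneic libraries, and Tnfrsf9 and Il12rb2 are highest in polyclonal libraries.

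In the TNF receptor family, Tnfrsf1a changed in opposite directions in the 2 stimulations. Tnfrsf1a, the death-domain receptor for TNF, was at 80.5, 57.1 and 87.8 CPM in WT and 122, 139 and 127 CPM in PERK-cKO after allogeneic stimulation (log2 fold change 0.78 ± 0.15 (SE), adjusted p = 0.000198). In the polyclonal cultures it was at 69.0, 58.4 and 56.2 CPM in WT and 30.0, 39.4 and 40.6 CPM in PERK-cKO (log2 fold change -0.76 ± 0.17 (SE), adjusted p = 0.00287). Neither pair of groups overlapped, and the effects differed by 1.53 ± 0.22 on the log2 scale (adjusted p = 1.36e-05). With T cell marker scaling both directions held (0.92 and -1.12). The counts came from 498 bp of Tnfrsf1a exons in a 3299 bp row, which also held 1394 bp of its introns and 1038 bp in another gene's span.

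Tnfrsf9, the costimulatory receptor 4-1BB induced on activated T cells, was at 211, 248 and 274 CPM in WT and 232, 296 and 249 CPM in PERK-cKO after allogeneic stimulation, where the groups overlapped (log2 fold change 0.08 ± 0.12 (SE), adjusted p = 0.636). After polyclonal stimulation it was at 846, 805 and 879 CPM in WT and 623, 557 and 513 CPM in PERK-cKO, lower in 3 of 3 PERK-cKO libraries (log2 fold change -0.59 ± 0.09 (SE), adjusted p = 9.95e-05). The effects differed by 0.66 ± 0.15 (adjusted p = 0.00152). Tnfrsf9 was higher after polyclonal than allogeneic stimulation in both genotypes, with log2 fold changes for allogeneic over polyclonal of -1.82 ± 0.10 in WT and -1.13 ± 0.10 in PERK-cKO. With symbols as listed the call in WT was lost (-0.80, adjusted p = 0.083), the value in PERK-cKO turned to 0.48 (adjusted p = 0.431), and the polyclonal genotype difference (-0.86, adjusted p = 0.0758) and the interaction (1.29, adjusted p = 0.146) did not pass. Since the row listed as Tnfrsf9 overlay no exon of the gene here, these are not second values of it. The placed counts rested on 80 bp of exon in a 593 bp row, of which 257 bp lay in another gene's span.

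Tnfrsf14, the HVEM receptor for LIGHT and BTLA, was at 152, 115 and 136 CPM in WT and 181, 225 and 196 CPM in PERK-cKO after allogeneic stimulation (log2 fold change 0.58 ± 0.12 (SE), adjusted p = 0.000731). It was at 114 to 123 CPM against 90.8 to 118 CPM after polyclonal stimulation (log2 fold change -0.22 ± 0.12 (SE), adjusted p = 0.167; -0.58, adjusted p = 0.00198, with T cell marker scaling), and the effects differed by 0.78 ± 0.18 (adjusted p = 0.00134). Tnfrsf13c, the BAFF receptor of B cells, was at 19.6 to 27.7 CPM in WT and 30.2 to 47.6 CPM in PERK-cKO after allogeneic stimulation (log2 fold change 0.81 ± 0.23 (SE), adjusted p = 0.00828). Without PERK-cKO allogeneic replicate 3 the value was 0.68 (adjusted p = 0.0509). The 2 B cell markers tested were both higher there, with a median log2 fold change of 0.92, and their part in the Tnfrsf13c difference was not tested.

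Tnfrsf21, a death-domain receptor known as DR6, was at 5.66 to 8.24 CPM in WT and 23.8 to 26.7 CPM in PERK-cKO after allogeneic stimulation (log2 fold change 1.93 ± 0.31 (SE), adjusted p = 2.39e-05). After polyclonal stimulation it was at 1.56 to 5.99 CPM against 6.17 to 8.22 CPM and did not pass (log2 fold change 0.93 ± 0.46 (SE), adjusted p = 0.138), although it did without WT polyclonal replicate 2 (1.52, adjusted p = 0.0493). In this comparison Tnfrsf21 reached the filter through the PERK-cKO libraries alone (11 to 16 counts, against 3 to 12 in WT), so that pass adds nothing to the counts.

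Allogeneic and polyclonal stimulation were also compared within each genotype. In WT cells 13 of 20 members tested differed between allogeneic and polyclonal stimulation, 10 higher and 3 lower after allogeneic stimulation, against 48.6% of 3985 genes (24.5% higher, 24.1% lower), and the groups did not overlap for 13 members (55.9% of all genes). With T cell marker scaling, which shifted the median of all genes by -0.60, the split was 8 higher and 7 lower, against 7.55% and 60.6% of all genes in this scaling. In PERK-cKO cells 20 of 24 differed, 18 higher and 2 lower, against 51.4% of 4159 genes (27.7% higher, 23.8% lower), and the groups did not overlap for 22 members (58.3% of all genes). Of these members 6 in WT and 8 in PERK-cKO passed the filter through 1 stimulation alone, and among the others 6 of 14 were higher and 2 lower in WT and 11 of 16 higher and 1 lower in PERK-cKO. In WT these were Csf2rb, Csf2rb2, Il18r1, Il18rap and Tnfrsf21 through the allogeneic and Il12rb2 through the polyclonal libraries. In PERK-cKO they were Csf3r, Ifnlr1, Il17re, Il18rap, Il1r2, Il1rl2 and Il1rn through the allogeneic and Il12rb2 through the polyclonal libraries. The 2 lower members in PERK-cKO cells were Il12rb2 and Tnfrsf9, and the plot of stimulation effects shows them left of 0 in both genotypes.

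Il1r2 and Tnfrsf1a were higher after allogeneic than polyclonal stimulation in PERK-cKO cells and did not pass in WT. The log2 fold change of allogeneic over polyclonal stimulation was 0.24 ± 0.50 in WT and 5.47 ± 0.30 in PERK-cKO cells for Il1r2, and 0.27 ± 0.17 and 1.83 ± 0.15 for Tnfrsf1a. The interaction given above for each gene is the test of this difference. Il1r2 passed the filter in PERK-cKO cells through the allogeneic libraries alone, against 2 to 3 polyclonal counts a library, so its test there adds little to the counts. Tnfrsf14 (0.96 ± 0.13), Tnfrsf21 (1.84 ± 0.28) and Tnfrsf13c (0.65 ± 0.22) also passed in PERK-cKO cells, the last not without PERK-cKO polyclonal replicate 3 (0.49), PERK-cKO allogeneic replicate 1 (0.60) or PERK-cKO allogeneic replicate 3 (0.53), nor with T cell marker scaling (0.55, adjusted p = 0.0516). The interactions of Tnfrsf21 (0.99 ± 0.57, adjusted p = 0.193) and Tnfrsf13c (0.62 ± 0.34, adjusted p = 0.165) did not pass, so a difference between the genotypes was not shown for them. Both interactions passed with T cell marker scaling.

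**Figure D4:**
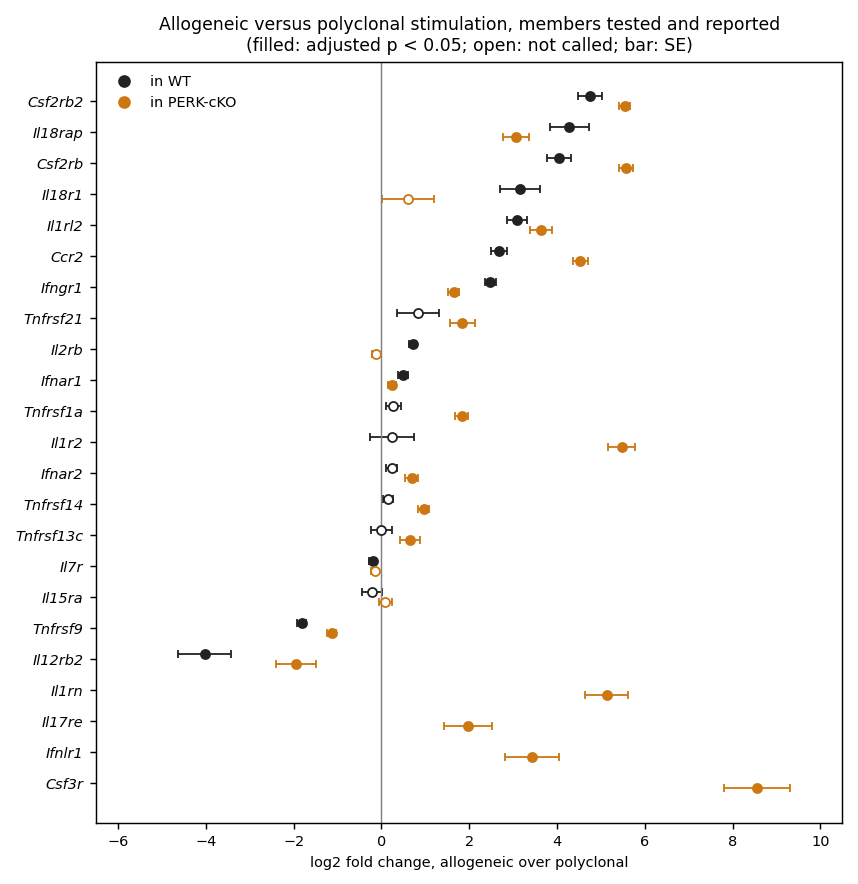
Log2 fold change of allogeneic over polyclonal stimulation (x axis) for the members tested and reported here (y axis), in WT (black) and PERK-cKO (orange) cells, with bars for the SE from 3 libraries a group and filled points for adjusted p under 0.05. Most members lie right of 0, Il12rb2 and Tnfrsf9 lie left of 0 in both genotypes, and Il1r2 lies near 0 in WT and at 5.47 in PERK-cKO.

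The ligands and signalling proteins around these receptors were described from lists of the same pathway, chosen with earlier results of these data known. Of 65 cytokine and chemokine ligands 8 could be placed, and all 3 tested after allogeneic stimulation were higher in PERK-cKO cells, as were 18.5% of all genes: Tnfsf14, which encodes LIGHT (log2 fold change 1.73), Ccl22, a ligand of CCR4 (1.21, the same gene that leads the dendritic cell sum), and Cxcl11, a ligand of CXCR3 (3.00). Cxcl11 had 1 to 3 counts in WT and 12 to 22 counts in PERK-cKO libraries and could pass the filter through the latter alone. After polyclonal stimulation Ccl22 was higher (0.53) and Tnfsf14 lower (-0.27). Of 27 receptors of these families under other symbols 10 could be placed, and Cd27, a costimulatory TNF receptor (-0.98), and Sigirr, an inhibitory IL-1 family receptor (-0.56), were lower after allogeneic stimulation among 4 tested (14.5% of all genes). Il6st, the shared IL-6 chain gp130 (-0.67), Tgfbr1, a TGF-beta receptor (-0.75), and Sigirr (-0.39) were lower after polyclonal stimulation among the same 4 (15.8% of all genes).

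Of 21 receptor signalling genes tested, 6 were higher and 1 lower in PERK-cKO cells after allogeneic stimulation, while 0 were higher and 8 lower after polyclonal stimulation. Over all genes tested, 18.5% were higher and 14.5% lower after allogeneic stimulation (33% in all), and 16% were higher and 15.8% lower after polyclonal stimulation (31.8% in all). Jak2, the kinase used by the common beta chain, had 576.2 ± 24.4 CPM (SD, n = 3) in WT and 948 ± 27.7 CPM in PERK-cKO after allogeneic stimulation (log2 fold change 0.72, adjusted p = 4.43e-07) and 1498.5 ± 10.3 CPM against 954.2 ± 102.2 CPM after polyclonal stimulation (-0.67, adjusted p = 2.78e-05). Relb (0.70), Irak2 (0.51), Birc2 (0.39), Birc3 (0.25) and Tyk2 (0.23), which encode an NF-kB subunit, an IL-1 receptor kinase, a pair of ubiquitin ligases at TNF receptors and a Janus kinase, were the other genes higher after allogeneic stimulation, and Ptpn6, a phosphatase, was lower (-1.39). Ptpn6 had 12 to 16 counts a library in WT and 1 to 13 in PERK-cKO there, and could pass the filter through the WT libraries alone. After polyclonal stimulation Stat5a (-0.44) and Stat5b (-0.49), the STAT proteins of IL-2 signalling, were lower, as were Arrb1, a beta-arrestin (-1.38), Irak2 (-0.43), Birc2 (-0.53), Birc3 (-0.47) and Map3k14, the NF-kB inducing kinase (-0.39). The median log2 fold changes of the list were 0.05 and -0.22, against -0.02 and 0.00 over all genes.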

How the data were processed

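RNA-Seq was performed by the authors on spleen T cells, 12 libraries in 4 groups of 3. The authors deposited raw counts per gene symbol from featureCounts 2.0.1, with GENCODE M27 exon positions and without strand. The submitters' processing notes name mm10, and the aligner is not given in the sources used here. Rows were laid, unconverted, on GRCm38 exons (GENCODE M21), and each row that shared 50 bp or more with the exons of a single gene was summed into its placed counts, with small RNA genes ignored. Rows over exons of no gene or of several genes were left out, and 0 columns belonged to other samples.

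Genes were filtered by filterByExpr, normalized by TMM and tested with edgeR 4.0.16 (quasi-likelihood, two-sided, R 4.3.3, limma 3.58.1). The standard error (SE) is the log2 fold change over the square root of F. Genotypes were compared within a stimulation and stimulations within a genotype with 6 libraries each, and the interaction with 12. P-values were adjusted by Benjamini-Hochberg over all genes tested, and the fits were tested on simulated data. Ratios of low counts carry 95% intervals from the exact (Clopper-Pearson) share of the summed counts, which like the floor of 3 counts cover counting error only. Promoters, transcripts and plots were read and drawn with Python 3.11.15, pandas 2.3.3, Biopython 1.88 and matplotlib 3.10.9.

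The results of 1 member are not reported here, though counts of members include it. The members, gene lists and tests were chosen with earlier results of these data known. Values per library were given first for members called between genotypes (of more than 12 called, the 6 highest and 6 lowest by fitted change) and for a fixed list of T cell receptors. Alternatives were DESeq2 1.42.0, RLE factors, library size, no filter, 10 counts in every library, an overlap of 200 bp, 50% of the row inside the gene, symbols as listed, a replicate block, all 12 libraries in 1 fit and each library left out. Scaling to T cell markers was chosen after seeing the data. Correlations between same-numbered libraries did not meet the rule for pairing. Replicates all differed by more than sampling noise.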

Additional observations from a re-analysis of the deposited data

Results flagged for a closer look

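For 12 members the effect of PERK deficiency differed between allogeneic and polyclonal stimulation by edgeR's interaction test at an adjusted p under 0.05, as it did for 33.9% of all genes tested. For the 11 reported here, on the log2 scale and as allogeneic minus polyclonal effect, the difference was 5.20 for Il1r2, 4.70 for Il1rn, 3.95 for Ifnlr1, 1.83 for Ccr2, 1.53 for Tnfrsf1a, 1.49 for Csf2rb, 0.78 for Tnfrsf14 and 0.66 for Tnfrsf9. It was -2.58 for Il18r1, -0.87 for Il2rb and -0.86 for Ifngr1. The values of Il1rn and Ifnlr1 rest on genes that passed the filter on low counts through the PERK-cKO allogeneic libraries alone. Sex cannot be told apart from these differences, since Y-linked counts stood in the WT allogeneic libraries alone. Groups of 3 libraries are too small for the test of outlying libraries.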

How the results depend on the processing

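Members called under leave-one-out fits numbered 15 to 17 between genotypes after allogeneic stimulation, 6 to 8 after polyclonal stimulation, 10 to 12 for the interaction, 12 to 13 between stimulations in WT and 17 to 19 in PERK-cKO. With 10 counts required in every library, 11 of 16 members tested were called after allogeneic stimulation (29.6% of all genes), 8 of 13 between stimulations in WT (48.6%) and 12 of 15 in PERK-cKO (49.6%). With at least 50% of the row inside the gene, 3, 0, 2, 3 and 4 of 4 members were called in the 5 comparisons in the order above (36.5%, 33.6%, 34.6%, 54.8% and 56.1% of all genes). With symbols as listed, 7 of 14, 3 of 10, 3 of 14, 6 of 13 and 9 of 14 were called (28.9%, 29.5%, 29%, 46.6% and 46.2% of all genes). In these settings fewer members were tested, and some rows listed under a member's symbol overlay no exon of it as laid here. With T cell marker scaling, which shifted the median of all genes by 0.12 after allogeneic stimulation and by -0.09 between stimulations in PERK-cKO, the calls were 15 higher and 2 lower (22.5% and 7.99% of all genes), and 16 higher and 4 lower (23.6% and 28.1%).

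Some log2 fold changes changed sign. With T cell marker scaling they became 0.00 for Ifnar1 and 0.14 for Il7r after allogeneic stimulation, -0.23 for Ifnar1, -0.02 for Il15ra, -0.36 for Il1rl2, -0.09 for Il2rb and -0.20 for Tnfrsf13c after polyclonal stimulation, 0.24 for the Ifnar1 interaction and -0.09 for Ifnar1 between stimulations in WT. With symbols as listed they became -0.49 for Ifnlr1, 0.65 for Il18r1 (from the row counted here as Il18rap, so not a second value of Il18r1) and 0.02 for Il7r after allogeneic stimulation, -0.02 for Csf2rb2 and 0.01 for Il12rb2 after polyclonal stimulation, -0.53 for the Il17re interaction, -0.03 for Csf2rb2 in WT, and -0.48 for Ifnlr1, -0.34 for Il17re and 0.48 for Tnfrsf9 in PERK-cKO between stimulations. The rows listed as Csf2rb2, Ifnlr1, Il12rb2 and Tnfrsf9 overlay no exon of these genes as laid here, so they give no second values either. Il7r after allogeneic stimulation was 0.01 with RLE factors and DESeq2, 0.03 with library size alone and with 50% of the row inside the gene, 0.05 with 10 counts and 0.00 with the replicate block. Il7r after polyclonal stimulation was 0.01 with library size alone. Il1rl2 after polyclonal stimulation was -0.02 with DESeq2, -0.09 with the replicate block and -0.01 with 200 bp of overlap. Under leave-one-out, signs changed for Il7r (-0.04 to 0.03) and Tnfrsf9 (-0.02 to 0.17) after allogeneic stimulation, for Ccr2 (-0.50 to 0.21) and Il1rl2 (-0.67 to 0.34) after polyclonal stimulation, and for the interactions of Il17re (-0.98 to 1.30) and Il7r (-0.01 to 0.08). The cause was not tested.

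With a replicate block the counts of calls were 17, 6, 12, 13 and 20, the same as without it. The numbers did not pair the libraries: correlations of same-numbered libraries were -0.165 to 0.191, and at most 2 of 6 libraries correlated best with their own number. Depth limits Il1r1, Il13ra1, Il17rd, Csf3r, Ifnlr1 and Il12rb2, which held few counts.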
